A study of Mus musculus with 42 samples.

Results

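The E6.5 epiblast was compared with the E3.5 inner cell mass of mouse embryos, gene by gene, in a table that listed maternal and paternal expression separately. The value of a gene was its total, the sum of the maternal and paternal FPKM (a fragment count corrected for transcript length and library size). A gene was compared if its total was at least 5 FPKM in either column and above 0 in both, and 6261 of 24083 genes met this rule. Both columns came from wild-type female embryos with a C57BL/6N mother and a PWK/PhJ father, so strain and parental origin coincide and cannot be told apart. RNA was amplified by Smart-seq2, which primes on poly(A) tails and keeps no strand. The epiblast column was 1 sample and the inner cell mass column combined 2 samples, in a series of 42. No spread between embryos could be computed, and no difference was tested. In place of a test, a gene is called higher or lower here when epiblast and inner cell mass differed by at least 2-fold after 1 was added to each FPKM, and log2 ratios are epiblast over inner cell mass on that scale. They are smaller than ratios of the printed levels when a gene is low. Genes at the edge of the rule were Repin1 (5.00136 FPKM in epiblast), Abcc5 (5.004 in inner cell mass) and Irak2 (5.01 in inner cell mass) inside it, and Vps45 (4.98), Pik3r4 (4.99 in epiblast) and Ak7 (4.99872) outside.

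The inner cell mass is the group of cells inside the blastocyst that gives rise to the epiblast and to the primitive endoderm, an extraembryonic layer. Before implantation its pluripotent cells use a set of transcription factors called naive, which respond to LIF and STAT3 signalling. After implantation the epiblast forms an epithelium that passes through a formative state before gastrulation, when genes such as Otx2 and Fgf5 come on and DNA methylation is laid down anew. In female embryos the paternal X chromosome, silenced in early cleavage, is switched on again in the epiblast lineage before random X inactivation.

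Promoters of 3 naive and 3 formative genes are shown because these lists mark the pluripotent states before and after implantation and because CG pairs are what the DNA methyltransferases described below act on. They are the genes of each list with the largest ratio among those with an entry in the RefSeq promoter table (GRCm38.p6). Each sequence is the 250 bases before the start site, 5′ to 3′ on the gene's strand, with CG pairs in capitals. The expression files use mm9, so these coordinates belong to another build and serve only to place the sequence. The naive genes are Tfcp2l1 (chr1:118627695-118627944, plus strand, 16 CG pairs), Tcl1 (chr12:105222738-105222987, minus strand, 7 CG pairs) and Klf4 (chr4:55532476-55532725, minus strand, 32 CG pairs). The formative genes are Car14 (chr3:95904686-95904935, minus strand, 10 CG pairs), Pim2 (chrX:7878056-7878305, plus strand, 22 CG pairs) and Igfbp2 (chr1:72824230-72824479, plus strand, 14 CG pairs, the start used being 1 of 2 in the table).
Tfcp2l1: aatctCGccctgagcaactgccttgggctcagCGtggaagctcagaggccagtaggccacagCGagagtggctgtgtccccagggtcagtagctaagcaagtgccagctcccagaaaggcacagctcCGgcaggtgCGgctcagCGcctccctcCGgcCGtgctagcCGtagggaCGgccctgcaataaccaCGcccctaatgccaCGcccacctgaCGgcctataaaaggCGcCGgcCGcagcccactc
Tcl1: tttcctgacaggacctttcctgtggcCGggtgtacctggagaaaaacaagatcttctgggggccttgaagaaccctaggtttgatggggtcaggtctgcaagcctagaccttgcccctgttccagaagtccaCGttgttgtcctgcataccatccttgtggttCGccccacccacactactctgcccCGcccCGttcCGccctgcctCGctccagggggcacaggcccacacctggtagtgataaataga
Klf4: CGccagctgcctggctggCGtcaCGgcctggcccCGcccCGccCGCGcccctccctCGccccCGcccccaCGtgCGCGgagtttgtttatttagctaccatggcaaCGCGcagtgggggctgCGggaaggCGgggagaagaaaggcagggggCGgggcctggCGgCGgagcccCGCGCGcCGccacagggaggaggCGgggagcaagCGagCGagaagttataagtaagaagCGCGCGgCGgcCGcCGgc
Car14: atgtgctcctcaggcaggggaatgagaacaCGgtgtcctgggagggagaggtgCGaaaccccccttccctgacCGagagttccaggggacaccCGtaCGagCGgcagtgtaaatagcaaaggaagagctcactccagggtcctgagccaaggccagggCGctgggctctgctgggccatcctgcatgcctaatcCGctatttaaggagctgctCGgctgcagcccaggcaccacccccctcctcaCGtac
Pim2: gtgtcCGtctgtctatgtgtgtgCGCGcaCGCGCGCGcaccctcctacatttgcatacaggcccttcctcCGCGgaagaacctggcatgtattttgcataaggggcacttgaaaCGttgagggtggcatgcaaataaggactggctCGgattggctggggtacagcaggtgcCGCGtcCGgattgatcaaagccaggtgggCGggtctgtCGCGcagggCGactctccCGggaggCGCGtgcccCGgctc
Igfbp2: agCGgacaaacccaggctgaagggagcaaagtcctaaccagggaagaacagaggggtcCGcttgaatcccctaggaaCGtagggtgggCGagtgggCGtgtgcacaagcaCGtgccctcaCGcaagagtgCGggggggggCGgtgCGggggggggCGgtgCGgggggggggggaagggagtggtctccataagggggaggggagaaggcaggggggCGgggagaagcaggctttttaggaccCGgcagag

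The printed promoters had 7 to 32 CG pairs (naive) and 10 to 22 (formative), beside a median of 6 over all 27025 promoters. Over the lists, 12 naive genes with an entry had a median of 13.5 CG pairs (1 to 32) and 18 formative genes a median of 12.5 (0 to 29). Genes higher in epiblast had a median of 17 CG pairs, as did all compared genes, and genes lower in epiblast had 15.5. Promoters with 5 CG pairs or fewer made up 8.81% of the higher genes, 11.3% of the lower genes and 7.09% of all compared genes, against 49.5% of 27025 promoters in the table. The letters TAATCC, bound by Otx2, stood on either strand in 5.56% of promoters of higher genes, 5% of lower genes and 6.38% of all promoters, and Car14 was among those that hold them. The Esrrb letters TCAAGGTCA were in 0.155% of promoters of higher genes, 0.391% of lower genes and 0.366% of all promoters. The E-box CACGTG was in 11.1% of promoters of higher genes, 9.77% of lower genes, 9.77% of all compared genes and 6.05% of all promoters. Over all compared genes the Otx2 letters were in 5.06% and the Esrrb letters in 0.227%. These are matches of letters only.

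Of the 6261 genes compared, 850 (13.6%) were higher in the epiblast and 1655 (26.4%) were lower. At least 8-fold differences numbered 114 higher and 278 lower. The median log2 ratio over all compared genes was -0.23, with quartiles of -1.07 and 0.49, so each value below is to be read against that offset. With the median set to 0, the counts were 1098 higher and 1353 lower, which moved the share of higher genes among all size calls from 33.9% to 44.8%. Genes just past the limit on the lower side, such as Gsk3b (-1.01), Uhrf1 (-1.05) and Pfkp (-1.06), are not called on that scale, and genes just short of it on the higher side, such as Rplp0 (0.99) and Ube3a (0.93), are. The split also follows from who passed the rule: 4360 genes reached 5 FPKM in both columns, of which 356 were higher and 722 lower. A further 1208 reached it in inner cell mass only, with 933 lower, and 693 in epiblast only, with 494 higher. The alleles were read from the same libraries and are not replicates. Of the higher genes 585 (68.8%) were at least 2-fold higher on the maternal and on the paternal allele separately, and of the lower genes 1127 (68.1%) were lower on both. An allele had a ratio of the opposite sign in 15 higher and 46 lower genes.

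**Figure D1:**
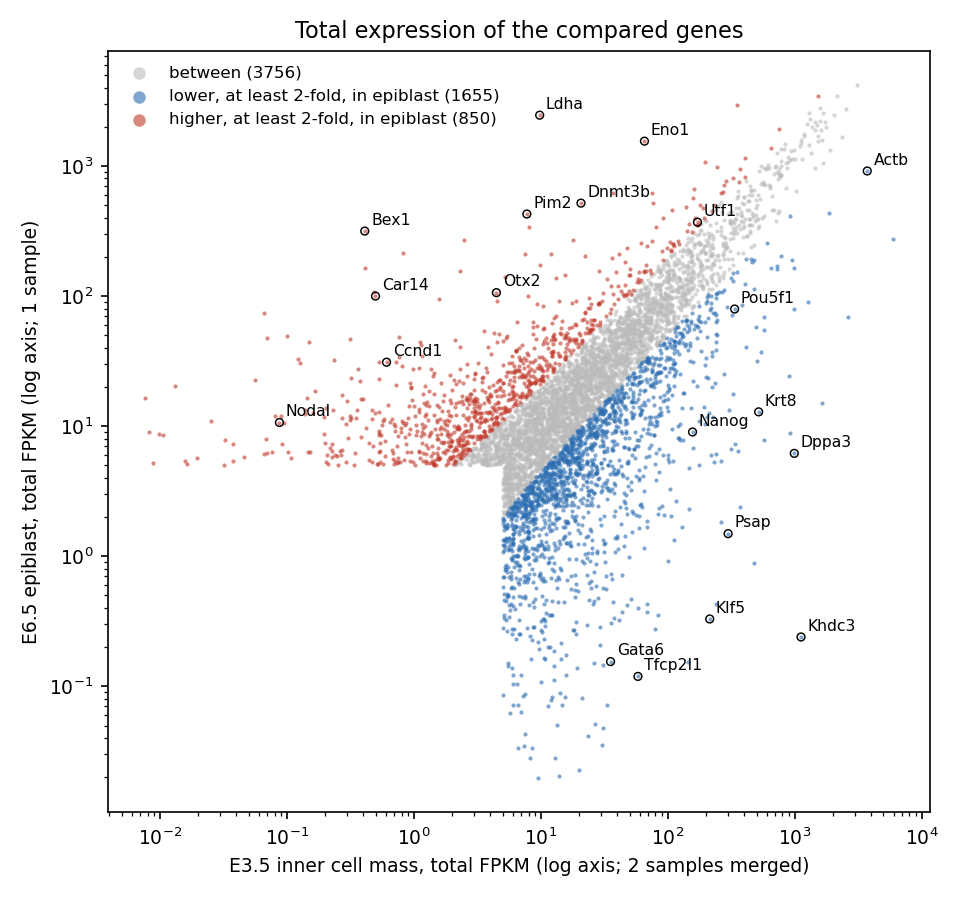
Total FPKM of each compared gene in E3.5 inner cell mass (x, log axis, 2 samples combined) and E6.5 epiblast (y, log axis, 1 sample). Red points are the 850 genes at least 2-fold higher in epiblast on FPKM + 1, blue points the 1655 lower and grey points the 3756 between; the empty corner at lower left is the 5 FPKM minimum.

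Marker lists were used to check the labelled tissues. The inner cell mass column had sizeable levels of trophectoderm markers, and RNA from trophectoderm cells and expression by inner cell mass cells cannot be told apart here. The 18 markers summed to 2439 FPKM, with 2 at 0, against 11562 in the E3.5 trophectoderm column and 123 in epiblast, where 11 were at 0. Krt8 and Krt18, keratins of simple epithelia, had 520 and 572 FPKM in inner cell mass and 12.9 and 69 in epiblast, while Cdx2 (12.2) and Gata3 (71.8), transcription factors of trophectoderm, were listed at 0 in epiblast. The 15 primitive endoderm markers summed to 268 FPKM in inner cell mass (1 at 0) and 30.4 in epiblast (4 at 0), with Gata6, which specifies this layer, at 35.4 and 0.155. Primitive endoderm precursors are part of the E3.5 inner cell mass, and in bulk values fewer cells of a type and less RNA per cell cannot be told apart. By the size rule 7 of 8 compared primitive endoderm markers, 6 of 7 trophectoderm markers and 3 of 4 visceral endoderm markers were lower, and of 4 extraembryonic ectoderm markers 2 were lower and 1 higher. In the epiblast column, marker sums of neighbouring tissues were low. RNA from those tissues and expression by epiblast cells cannot be told apart. The 18 visceral endoderm markers summed to 77.9 FPKM in epiblast, 65.6 of them from Apoe, against 16050 in the visceral endoderm column. The 15 extraembryonic ectoderm markers summed to 66.3 FPKM in epiblast, 52.2 of them from Spc25, a kinetochore gene active in any dividing cell. Maternal decidua markers summed to 1.96 FPKM in inner cell mass and 2.63 in epiblast, and blood and endothelium markers to 18.4 and 0.930, with Pecam1 providing 14.4 in inner cell mass. Of the 1655 lower genes, 627 (37.9%) had a higher total in trophectoderm than in inner cell mass, beside 39.6% of all compared genes; without them the lower genes numbered 1028. The part of trophectoderm and primitive endoderm RNA in the lower genes was not tested.

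The genes with the highest ratios were led by Ldha, the muscle-type lactate dehydrogenase that turns pyruvate into lactate, at 9.80 FPKM in inner cell mass and 2451 in epiblast (log2 ratio 7.83). Ldhb, the heart-type subunit, had 0.485 and 107 (6.19). Bex1 and Bex4, small X-linked adaptor proteins, had 0.411 and 315 (7.81) and 0.819 and 215 (6.89). Several others are membrane or secreted proteins. Emb, a chaperone for the lactate carrier, had 2.46 and 271 (6.29), Igfbp2, which binds insulin-like growth factors, 2.33 and 157 (5.57), and Tspan6, a tetraspanin, 0.0703 and 47.9 (5.51). Kcnk1, a potassium channel, had 0.151 and 44.3 (5.30). Car2 and Car14, carbonic anhydrases, had 0.0655 and 73.5 (6.13) and 0.499 and 99.8 (6.07). Pim2, a serine/threonine kinase, had 7.76 and 426 (5.61). Hmga1, a chromatin architectural protein, had 8.10 and 336 (5.21). Nt5dc2 had 0.415 and 163 (6.85) and Gng3, a G protein gamma subunit, 0.101 and 48.9 (5.50). Mest, an imprinted gene, closed the list at 1.59 and 94.0 (5.20), all of it from the paternal allele in both columns.

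Many of these genes were not restricted to the epiblast among the E6.5 columns. The extraembryonic ectoderm column also held 1651 FPKM of visceral endoderm markers, against 77.9 in epiblast. The visceral endoderm column held 611 FPKM of formative and primed genes, against 1738 in epiblast. RNA carried over between these tissues was not tested. Extraembryonic ectoderm had 1972 FPKM of Ldha and 178 of Car2, and visceral endoderm had 962 and 288; for Car2 both are above the epiblast. Car14 (2.79 in visceral endoderm and 5.48 in extraembryonic ectoderm) and Gng3 (0.468 and 4.05) were low in both. Pim2 had 6.32 in visceral endoderm and 38.8 in extraembryonic ectoderm. Ldha and Hmga1 have near-identical processed copies in the genome, and how the authors treated reads that map to several places is not given in the sources used here, so their levels are uncertain.

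The genes with the lowest ratios were led by Khdc3, a component of the maternal complex under the egg cortex, at 1121 FPKM in inner cell mass and 0.240 in epiblast (log2 ratio -9.82). Fbxo15, an F-box gene of early embryos, had 481 and 0.882 (-8). Dppa3, which shields maternal methylation in the zygote, had 992 and 6.17 (-7.11) and was at 4818 in 8-cell embryos. Klf5 and Tfcp2l1, naive transcription factors, had 214 and 0.329 (-7.34) and 58.2 and 0.119 (-5.73). The connexin Gjb5, a gap junction subunit, had 144 and 0.154 (-6.98). Psap and Gm2a, cofactors of lysosomal lipid breakdown, had 299 and 1.49 (-6.91) and 369 and 2.40 (-6.76). Metabolic genes included Ckb, a creatine kinase, at 1638 and 15 (-6.68), and Sat1, which breaks down polyamines, at 924 and 8.79 (-6.56). Npl, a sialic acid lyase, had 262 and 1.84 (-6.53). Spp1, the secreted protein osteopontin, had 569 and 7.82 (-6.01). AU018091 had 79.1 and 0.274 (-5.98). Tspan8 had 84.4 and 0.356 (-5.98), but it is a trophectoderm marker and had 1256 FPKM in the trophectoderm column. Gm2a (1390), Psap (780), Klf5 (269) and AU018091 (211) also had more in trophectoderm than in inner cell mass; the part of trophectoderm RNA in their ratios was not tested.

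Genes listed at 0 in either column have no ratio. Of these, 193 had at least 5 FPKM in inner cell mass and 77 at least 5 in epiblast. Calcoco2, an autophagy receptor, had 1304 FPKM in inner cell mass and was at 0 in epiblast; the extraembryonic E6.5 tissues had 0.252 (visceral) and 0.0777 (ectoderm). Fbp2, a gluconeogenic phosphatase (625), Bhmt, which remethylates homocysteine (600), and Ly6a, a surface protein (235), were likewise at 0 in epiblast. In the other direction Fgf5, the best known marker of the post-implantation epiblast, was at 0 in inner cell mass and 60.8 in epiblast. Tceal8 (81.6), Bex2 (59.2), Tmem59l (36.2), the Ras family gene Eras (35.5) and Fam64a (32.2) showed the same pattern. A listed 0 need not mean silence. Rps7, a ribosomal protein gene, had 657 FPKM in inner cell mass and 0 in epiblast and trophectoderm, Gpx4 had 396 and 0, and Rpl29 had 0 and 643. Gm12191 (856), Ost4 (255), Hist1h2ao (252) and 2210409E12Rik (1018) were at 0 in epiblast, and Gtf2a2 (121), 2810417H13Rik (111) and Gm5148 (40.7) at 0 in inner cell mass. The genes Ppia and B2m, which nearly every cell uses, were at 0 in both.

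The naive factors were low throughout the epiblast column. Of 16 listed, 7 were compared and all 7 were lower (median log2 ratio -4.56, against -0.23 for all compared genes). Besides Klf5, Dppa3 and Tfcp2l1, these were Tcl1, an Akt cofactor, with 29.3 FPKM in inner cell mass and 0.287 in epiblast (-4.56), Klf4 with 10.9 and 0.368 (-3.12), the nuclear receptor Nr5a2 with 7.30 and 0.0845 (-2.94), and Mybl2, a cell cycle factor, with 84.1 and 12 (-2.71). Another 4 were at 0 in epiblast: Spic (108 in inner cell mass), Tbx3 (44.9), Klf2 (20.9) and Prdm14 (7.11). Esrrb, Nr0b1, Gbx2, Manba and Zfp42 were under 5 FPKM in both columns, Zfp42 at 0 in each. Summed over the list, naive factors had 1581 FPKM in inner cell mass and 22.5 in epiblast. The trophectoderm column also had 844, with Klf5 and Dppa3 prominent.

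Factors that both states use were divided. Of 16 listed, 15 were compared, with 5 (33.3%) higher and 7 (46.7%) lower (median -0.62), beside 13.6% and 26.4% of all compared genes. Nanog, a homeobox factor at the centre of the network, had 157 FPKM in inner cell mass and 9.01 in epiblast (-3.98). Pou5f1, which encodes Oct4, had 336 and 79.4 (-2.07), and Sox2, its partner, 6.89 and 4.14 (-0.62). Dppa2 (327 and 17.6, -4.14) and Dppa4 (153 and 62.4, -1.28), a pair of chromatin proteins, were both lower. So were Gdf3, a TGF-beta ligand (66.7 and 11.5, -2.43), and the repressor Rest (72.6 and 11, -2.61). Higher were Lin28a, which blocks let-7 maturation (0.723 and 20.6, 3.65), L1td1 (18.1 and 45.2, 1.27), Zfp281 (8.4 and 21.5, 1.26), Utf1 (171 and 369, 1.10) and the corepressor Trim28 (105 and 221, 1.06). Sall4 (63.2 and 52.9) and Trim71 (8.54 and 12.6) were between.

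Most genes of the formative and primed list were higher. Of 28 genes 27 were in the table and 13 were compared, 10 (76.9%) of them higher and 3 (23.1%) lower (median 4.06). Of all compared genes, 13.6% were higher and 26.4% lower. Otx2, the homeobox factor of the formative state, had 4.47 FPKM in inner cell mass and 106 in epiblast (4.29). Dnmt3b, a de novo DNA methyltransferase, had 20.7 and 517 (4.58), and Slc7a3, an arginine transporter, 7.53 and 209 (4.62). Sox11 had 0.167 and 18.5 (4.06), Lin28b 0.530 and 12.8 (3.18), the Hippo pathway factor Tead2 5.33 and 47.3 (2.93) and Tcf7l1, a repressor of naive genes, 1.97 and 11.9 (2.12). Besides Fgf5, 4 genes were at 0 in inner cell mass and reached 5 FPKM in epiblast: Sall2 (22.6), Pou3f1 (16.6), Lef1 (8.04) and Sox4 (5.59). The lower genes were Epha4 (18.0 and 0.270, -3.90), Hmga2 (22.9 and 5.28, -1.93) and Grhl2 (8.44 and 3.43, -1.09). Summed levels were 101 FPKM in inner cell mass and 1738 in epiblast. The visceral endoderm column had 611, including Fgf5 at 91.9 and Igfbp2 at 165. The part of epiblast RNA in that column was not tested.

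**Figure D2:**
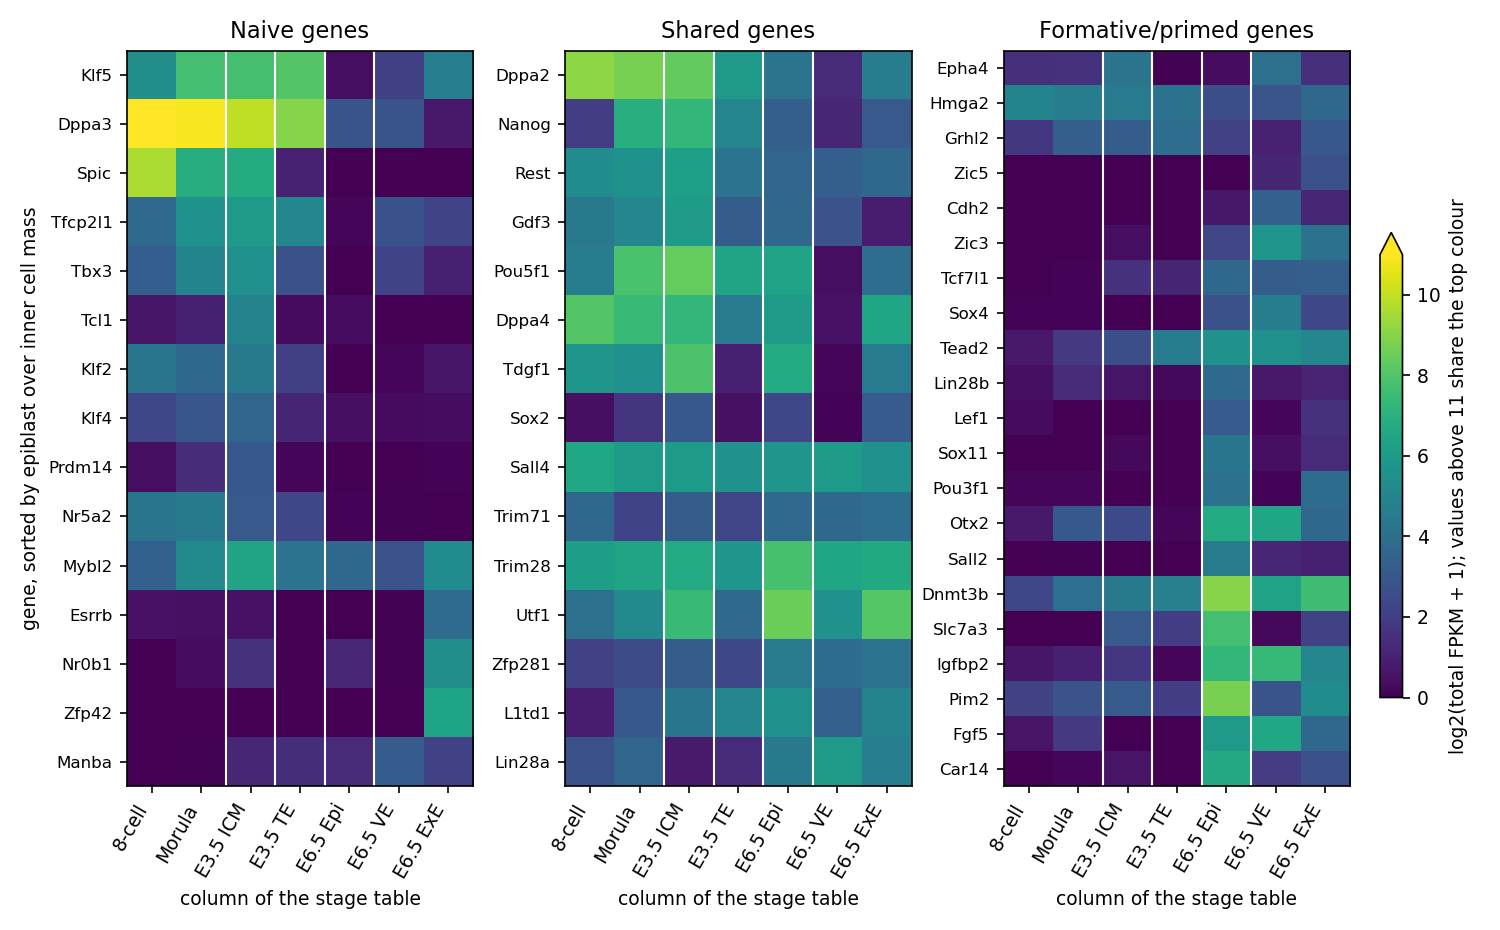
Levels of naive, shared and formative or primed genes that reached 5 FPKM in some column, as log2(total FPKM + 1), in each of 7 columns of the table; genes are sorted by epiblast over inner cell mass. Naive genes other than Dppa3 and Mybl2 are dark in the E6.5 Epi column, while Car14, Pim2 and Slc7a3 are bright there and darker in the other columns; Fgf5 and Igfbp2 are also bright in E6.5 VE.

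Primitive streak genes, which mark the onset of gastrulation, were low in both columns. Of 20 listed, 3 were compared: Gsc (12.1 and 0.451 FPKM) and Snai1 (12.9 and 2.40) were lower, and Eomes had 8.31 and 9.28. T, the streak marker Brachyury, was at 0 in inner cell mass and far below the minimum in epiblast, and Fgf8 was at 0 and 9.28. The summed list had 40.6 and 27.4 FPKM, against 724 in the visceral endoderm column, 338 of it from Amot. Of 10 germ cell genes 4 were compared: Ifitm1 (1.10 and 28.2, 3.79) and Ifitm3 (7.05 and 42.2, 2.42), membrane proteins, were higher, and Dppa3 and Alpl, alkaline phosphatase (175 and 5, -4.88), lower.

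**Figure D3:**
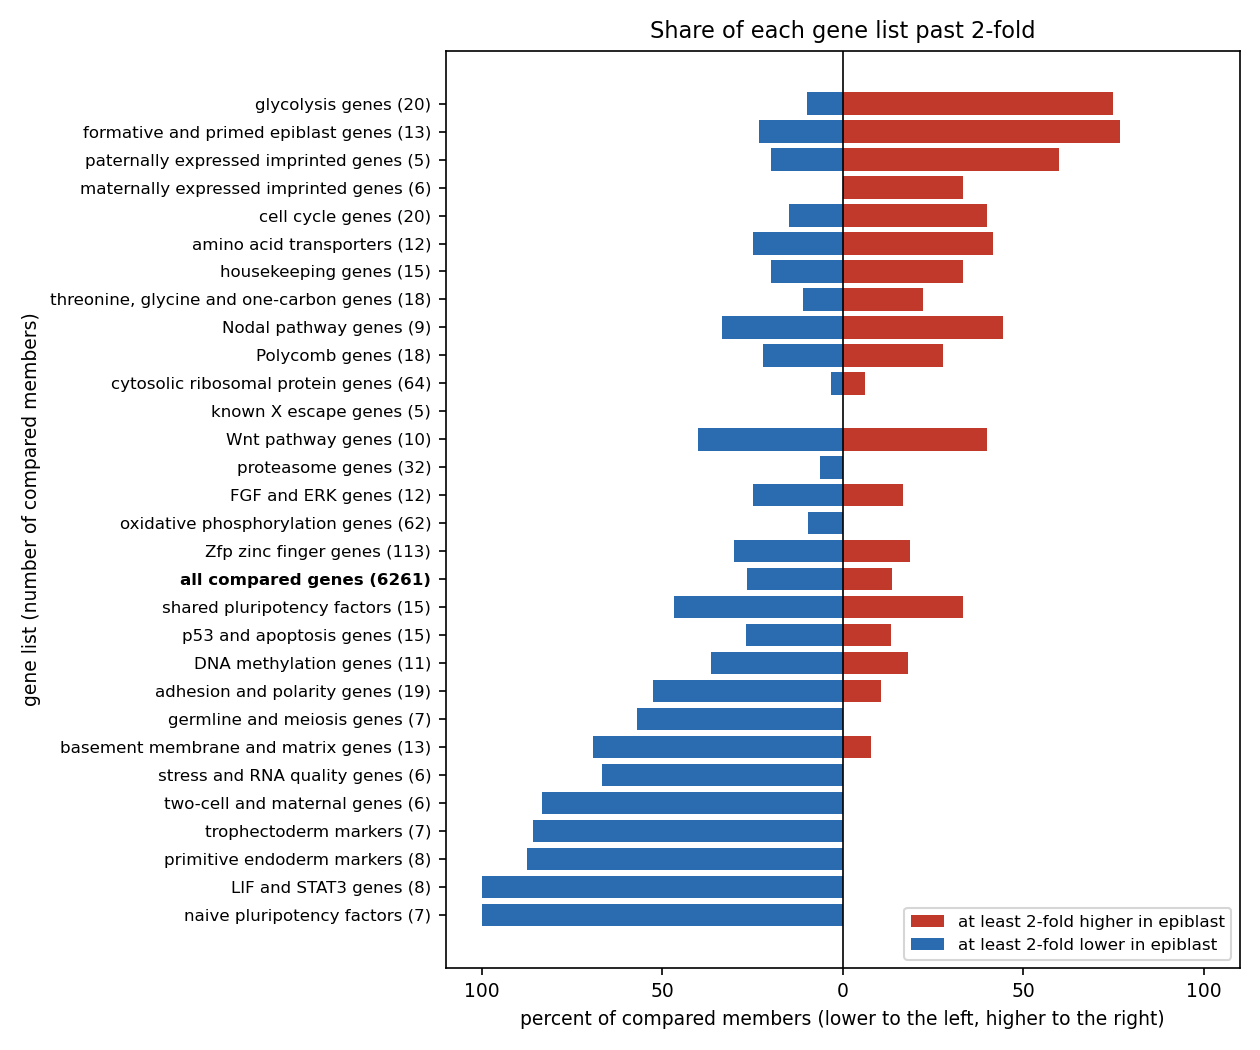
Share of compared members that were at least 2-fold higher (right, red) or lower (left, blue) in epiblast on FPKM + 1. Only lists with at least 5 compared members are drawn, without those drawn up after values had been seen. The number compared is in brackets and all 6261 genes are in bold. Glycolysis and formative genes stand at the top, and naive, LIF and STAT3, primitive endoderm and trophectoderm genes at the bottom; members at 0 in a column are not in the bars.

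LIF and STAT3 signalling supports the naive state, and each of its 8 compared genes (of 15 listed) was lower (median -2.94). Stat3 itself had 43.7 FPKM in inner cell mass and 0.715 in epiblast (-4.70). Its kinase Jak1 had 10.7 and 3.66 (-1.33), and its adaptor Gab1 had 13.6 and 0.697 (-3.10). Of its targets, Pim1 had 36.8 and 4.47 (-2.79), Socs3, the feedback inhibitor, 6.79 and 0.252 (-2.64), and Pim3 60.7 and 12.2 (-2.22). The receptor genes Lifr (2.37 and 0.444) and Il6st (4.31 and 0.505) were under the minimum. Klf4 and Tfcp2l1 are on this list as STAT3 targets and on the naive list as well. Pim2, the remaining Pim kinase gene, was higher, as given above.

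Nodal signalling maintains the epiblast after implantation. Of 21 genes 9 were compared, 4 (44.4%) higher and 3 (33.3%) lower (median 0.53), beside 13.6% and 26.4% of all compared genes. The ligand Nodal had 0.0874 FPKM in inner cell mass and 10.7 in epiblast (3.42). Its co-receptor Tdgf1 was lower, with 241 and 104 (-1.20), as was the convertase Pcsk6 (6.21 and 1.54, -1.50). Among transducers, Smad4 had 2.14 and 21.2 (2.83), the receptor Acvr2b 1.70 and 15.7 (2.63) and the repressor Skil 6.37 and 38.0 (2.40), whereas Smad2 (6.13 and 4.77) and Foxh1 (35.8 and 52.1) were between. In the FGF and ERK list, 12 of 26 were compared, with 2 (16.7%) higher and 3 (25%) lower (median -0.18). These shares were near those of all compared genes, 13.6% and 26.4%. The higher count was 5 with genes at 0 in either column kept and 4 with the median of all compared genes set to 0. The ligand Fgf4 had 25 and 19.8, and Fgf5 (60.8), Fgf15 (30.9) and Fgf8 (9.28) were at 0 in inner cell mass. Receptors were lower, Fgfr1 at 17.4 and 7.77 (-1.07) and Fgfr2, the receptor of primitive endoderm and trophectoderm, at 8.04 and 0.419 (-2.67), as was the phosphatase Ptpn11 (12.3 and 4.22, -1.35). Targets of ERK included Myc (8.28 and 31.2, 1.80), Ccnd1 (0.609 and 31.0, 4.31), Dusp6 (24.6 and 46.1) and Etv5 (50 and 43.7).

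Of 10 compared Wnt pathway genes (27 listed), 4 (40%) were higher and 4 (40%) lower (median 0.44). Of all compared genes, 13.6% were higher and 26.4% lower. Under other settings the higher count of the list ran from 2 to 6 and the lower from 0 to 7. Nuclear factors Tcf7 (0.386 and 16.2, 3.63), Tcf7l1 and Tcf7l2 (2.11 and 5.24, 1) were higher, as was the receptor Fzd7 (0.0808 and 12.1, 3.59). The receptor Fzd5 (7.80 and 0.973, -2.16), the feedback inhibitor Axin2 (7.10 and 0.483, -2.45), the kinase Gsk3b (17.1 and 7.98, -1.01) and the ligand Wnt7b (9.58 and 0.0198, -3.37) were lower. Porcn, needed to secrete Wnts (10.6), the inhibitor Dkk1 (13) and Wnt3a (5.18) were at 0 in epiblast, and Fzd2 (8.48) was at 0 in inner cell mass. Ctnnb1, which encodes beta-catenin, had 72.7 and 92.5. In the BMP list 4 of 18 genes were compared, with Id2 lower (124 and 7.77, -3.84) and Id3 at 211 and 289. The ligand Bmp4 had 36.3 FPKM in inner cell mass and was at 0 in epiblast. Id2 is also a trophectoderm marker.

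Genes of glucose use were mostly higher. Of 25 listed, 24 were in the table and 20 compared, with 15 (75%) higher and 2 (10%) lower (median 2.29). Of all compared genes, 13.6% were higher and 26.4% lower. Uptake was represented by Slc2a1, the GLUT1 transporter, at 41.3 FPKM in inner cell mass and 210 in epiblast (2.32), while Slc2a3, GLUT3, had 42.1 and 21.1 (-0.96). Early steps were mixed. Hexokinase Hk2 had 19.7 and 13.5, and of the phosphofructokinases Pfkl had 17.5 and 88.3 (2.27), Pfkm 0.470 and 11.3 (3.06) and Pfkp 11.4 and 4.94 (-1.06). The later enzymes compared were each higher: Tpi1 (75.1 and 621, 3.03), Gapdh (8.67 and 51.2, 2.43), Pgk1 (37.2 and 617, 4.02), Pgam1 (161 and 667, 2.04), Eno1 (65.5 and 1548, 4.54) and Pkm (198 and 1076, 2.44). At the branch to mitochondria, the pyruvate dehydrogenase kinases Pdk1 (1.83 and 10.2, 1.99) and Pdk3 (0.127 and 30.3, 4.80) were higher and Pdha1, a subunit of the dehydrogenase they inhibit, lower (142 and 60.2, -1.22). The lactate carrier Slc16a3 was at 0 in inner cell mass and 18.2 in epiblast, and Slc16a1 had 25.8 and 26.1. Gapdh, Pgk1, Eno1 and Ldha have processed copies and are uncertain, and Aldoa was at 0 in both columns.

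**Figure D4:**
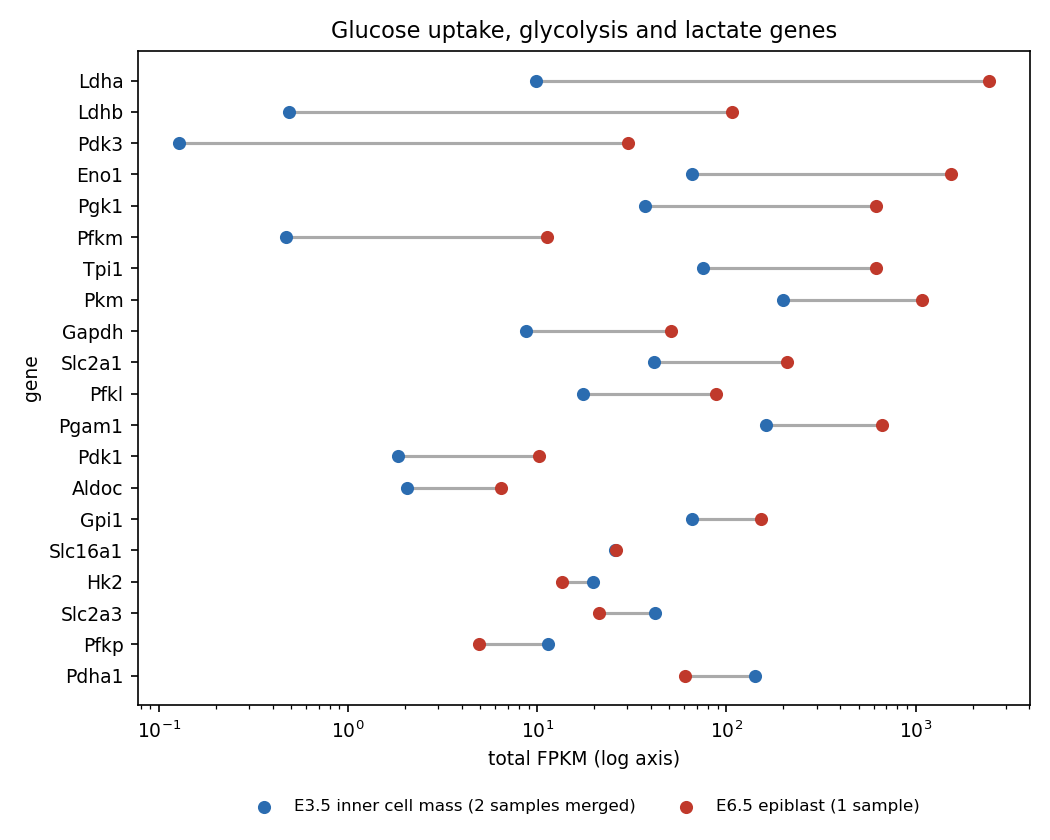
Total FPKM (log axis) of the 20 compared genes of glucose uptake, glycolysis and lactate, with inner cell mass in blue and epiblast in red, sorted by log2 ratio. In 15 genes the epiblast point lies at least 2-fold to the right, with Ldha, Ldhb and Pdk3 the widest apart; each point is a single column value and has no error bar.

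Oxidative phosphorylation genes had a median ratio close to that of all genes, and few of them passed 2-fold. Of the 74 genes 62 were compared, 0 were higher and 6 (9.68%) lower, beside 13.6% and 26.4% of all compared genes. A ratio below 0 was found in 49 (median -0.34). Against the median of all genes, -0.23, 36 of the 62 were below it. Medians by complex were -0.25 for complex I, -0.39 for complex II, -0.58 for complex III, -0.17 for complex IV and -0.48 for ATP synthase. The lowest were Ndufb11 (141 and 53 FPKM, -1.40), Ndufs5 (277 and 110, -1.32) and Uqcr10 (600.4 and 254, -1.24), and the highest Ndufs4 (65.7 and 92.1, 0.48). Among one-carbon genes, 4 of 18 compared (22.2%) were higher and 2 (11.1%) lower (median -0.20), beside 13.6% and 26.4% of all compared genes; the higher count was 1 with a pseudocount of 5 and 2 on paternal values. Tdh, the threonine dehydrogenase used by mouse naive cells, had 57.5 and 7.76 (-2.74) and Psat1, of serine synthesis, 217 and 81.4 (-1.40), while the mitochondrial folate genes Mthfd2 (14.4 and 57.1, 1.92) and Mthfd1l (2.39 and 8.63, 1.51) were higher, as was Mat2a (1.01). Of 12 amino acid transporters compared, 5 (41.7%) were higher and 3 (25%) lower. The higher ones included Slc7a3 and the glutamine carriers Slc38a2 (8.68 and 57.7, 2.60), Slc1a5 (3.98 and 16.9, 1.85) and Slc38a1 (3.82 and 16.2, 1.84). Slc38a4 (38.0 and 7.13, -2.26) was among the lower.

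Of 11 compared DNA methylation genes 2 were higher and 4 lower (median -0.18), or 18.2% and 36.4%, beside 13.6% and 26.4% of all compared genes. The higher genes were the writers of new methylation: besides Dnmt3b, Dnmt3a had 2.1 FPKM in inner cell mass and 46.2 in epiblast (3.93). Their catalytically inactive partner Dnmt3l was lower (51.8 and 12.2, -2). Maintenance genes were Dnmt1, at 5.90 and 9.93 (0.66), and Uhrf1, at 69.7 and 33.2 (-1.05). Of the dioxygenases that remove methylation, Tet2 had 23.3 and 0.0416 (-4.55), Tet1 15.2 and 7.78 (-0.89) and Tet3 0.380 and 1.56. Zfp57, which guards imprints, had 11 and 2.62 (-1.73). Of 25 germline genes, many of which are repressed by promoter methylation, 18 were under 5 FPKM in both columns. Of the 7 compared 0 were higher and 4 (57.1%) lower, beside 13.6% and 26.4% of all compared genes. The lower ones were Tex19.1 (119 and 8.15, -3.72), Stk31 (16.6 and 1.52, -2.80), Fkbp6 (64.0 and 9.48, -2.63) and the ribosomal retrocopy Rpl10l (27.9 and 9.45, -1.47). Mael, Sycp3 and Hormad1 were between. Under the minimum, genes went both ways: Ddx4 (1.12 and 2.92) and Syce1 (0.247 and 3.15) had more in epiblast, Asz1 (2.02 and 0.348) and Piwil2 (1.55 and 0.153) less. A part of methylation in these levels was not tested. Genes of the 2-cell embryo and egg had 0 of 6 compared higher and 5 lower, with Ooep (66.3 and 4.84, -3.53) and Zp3 (15.4 and 1.68, -2.62) beside Khdc3.

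Polycomb genes encode repressive histone-modifying complexes. Of 18 compared 5 (27.8%) were higher and 4 (22.2%) lower (median -0.51), beside 13.6% and 26.4% of all compared genes. The higher count was 3 with a pseudocount of 5, with a minimum of 10 FPKM or on maternal values, and 2 on paternal values. Higher were the PRC1 genes Phc1 (2.29 and 40.3 FPKM, 3.65), Cbx2 (0.108 and 5.65, 2.59), Pcgf2 (0.687 and 6.22, 2.1), Rybp (3.35 and 10.8, 1.44) and Pcgf6 (24.8 and 55.4, 1.13). Other PRC1 genes were between, among them Rnf2 (38.8 and 32.9), Pcgf5 (9.94 and 7.07), Cbx7 (15.9 and 19.8) and Kdm2b (14.4 and 7.85). The PRC2 accessory genes Aebp2 (13.8 and 2.42, -2.11), Mtf2 (82.8 and 25.5, -1.66) and Jarid2 (48.4 and 16.7, -1.48) and the alternative catalytic subunit Ezh1 (5.50 and 2.03, -1.10) were the lower ones. PRC2 core genes lay between: Ezh2 had 56.3 and 37.2, Eed 90.5 and 49.0 and Suz12 24.1 and 14.6. KRAB and other zinc finger genes named Zfp had 21 higher and 34 lower of 113 compared (354 listed, median -0.18), or 18.6% and 30.1%, near the shares of all compared genes. Zfp266 (0.236 and 32.2, 4.75) and Zfp296, a pluripotency-associated factor (39.6 and 4.34, -2.93), were at the extremes.

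Cell cycle genes had 8 (40%) higher and 3 (15%) lower of 20 compared (median 0.61), beside 13.6% and 26.4% of all compared genes. The D-type cyclins had opposite ratios: Ccnd1 had 0.609 FPKM in inner cell mass and 31.0 in epiblast, and Ccnd3 had 240 and 38.4 (-2.61). Their kinase Cdk4 had 270 and 626 (1.21), while Cdk2 had 112 and 29.8 (-1.88) and its cyclins Ccne1 28.7 and 155 (2.39) and Ccne2 2.2 and 9.44 (1.71). The Myc family gene Mycn had 10.4 and 84.4 (2.91). The mitotic genes Plk1 (30.4 and 91.3, 1.56) and Mki67 (2.5 and 9.01, 1.51) were higher, and Cdk1 (96.3 and 101), Aurka (121 and 110) and Ccnb1 (163 and 252) were between. The inhibitor Cdkn1a had 15.5 and 2.96 (-2.06). Of 15 compared p53 and apoptosis genes 2 (13.3%) were higher and 4 (26.7%) lower, near the 13.6% and 26.4% of all compared genes. Trp53 had 152 and 198. The higher 2 were the death-promoting Bid (3.18 and 30.6, 2.92) and Bcl2l11 (1.11 and 6.44, 1.82). The lower 4 were Perp (65.4 and 1.16, -4.94), Bad (30.4 and 3.45, -2.82), Cdkn1a and Mdm4 (13.4 and 2.99, -1.85).

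Adhesion and polarity genes had 2 (10.5%) higher and 10 (52.6%) lower of 19 compared (median -1.34), beside 13.6% and 26.4% of all compared genes. Tight junction genes made up most of the lower ones, with Cldn4 (146 and 4.73 FPKM, -4.68), Tjp3 (6.08 and 0.485, -2.25), Cldn3 (10.8 and 2.12, -1.92), Ocln (18.9 and 4.57, -1.84) and Cldn7 (169 and 47.7, -1.81). Cdh1, E-cadherin, had 76.3 and 29.5 (-1.34). Higher were Podxl, the sialomucin that lines the epiblast lumen (0.0692 and 6.19, 2.75), and Cldn6 (47.7 and 233, 2.27). Of 13 compared basement membrane and matrix genes 9 (69.2%) were lower and 1 (7.69%) higher (median -1.54). The lower genes included the laminin chains Lamb1 (16.6 and 3.20, -2.07) and Lamc1 (8.21 and 2.61, -1.35), the collagens Col4a1 (10.7 and 1.13, -2.45) and Col4a2 (5.62 and 0.339, -2.31), and Nid1 (12.1 and 0.0784, -3.60), while Nid2 had 2.68 and 8.36 (1.35). Primitive endoderm makes basement membrane and trophectoderm is sealed by tight junctions. The marker sums of these tissues were 268 and 2439 FPKM in inner cell mass and 30.4 and 123 in epiblast. Sparc (87.2 and 22.4), Col4a1 and Lama1 are on both the primitive endoderm and the matrix list, so those values are not independent. The part of either tissue in the ratios was not tested.

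Some housekeeping genes also differed between the columns. Of 15 compared, 5 (33.3%) were higher, 3 (20%) lower and 7 between (median 0.43). Of all compared genes, 13.6% were higher and 26.4% lower. Actb had 3725 and 913 FPKM (-2.03), Hprt 981 and 165 (-2.56), Tubb5 245 and 977 (1.99) and Tbp 27.0 and 34.5 (0.34). Cytosolic ribosomal protein genes were narrowly distributed: 60 of 64 compared had a ratio above 0 (median 0.46), with 62 above the median of all genes. By size 4 (6.25%) were higher and 2 (3.1%) lower, Rpl39l (279 and 25.2, -3.42) and Rpl10l. Rpl39l and Rpl10l are copies used in germ cells, and many ribosomal protein genes have processed copies that make their levels uncertain. The 4 higher were Rpl21 (1.64 and 8.73, 1.88), Rpl35a (403 and 1150, 1.51), Rps27 (650 and 1382, 1.09) and Rpl15 (363 and 749, 1.04). Proteasome genes had 0 higher and 2 (6.25%) lower of 32 compared, with a median of -0.30. The lower 2 were the immunoproteasome subunit Psmb9 (38.4 and 1.08, -4.25) and Psmd3 (180 and 54.3, -1.71). Of 6 compared stress genes, some of which respond to tissue dissociation, 4 were lower and 0 higher: Fos had 8.50 and 0.0334, Jun 5.98 and 0.139, Ddit3 8.66 and 1.94 and Dnajb1 67.1 and 23.1, while the abundant chaperone Hspa8 had 2524 and 2758.

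The X chromosome stood apart from autosomes by allele, while the medians of its total levels were close. Total levels of 199 X-linked genes had a median log2 ratio of -0.17, beside -0.23 for 6050 autosomal genes. The maternal allele had a median of -0.79 and the paternal 1.06 on the X, against -0.23 and -0.21 on autosomes. By size 103 genes of the paternal X were higher and 19 lower, whereas 32 genes of the maternal X were higher and 84 lower. Autosomal genes were higher in 13.1% and lower in 25.3% on the maternal allele, and higher in 12.8% and lower in 24.6% on the paternal. In total levels 38 of the 199 X-linked genes were higher and 58 lower, beside 13.6% and 26.4% of all compared genes.

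**Figure D5:**
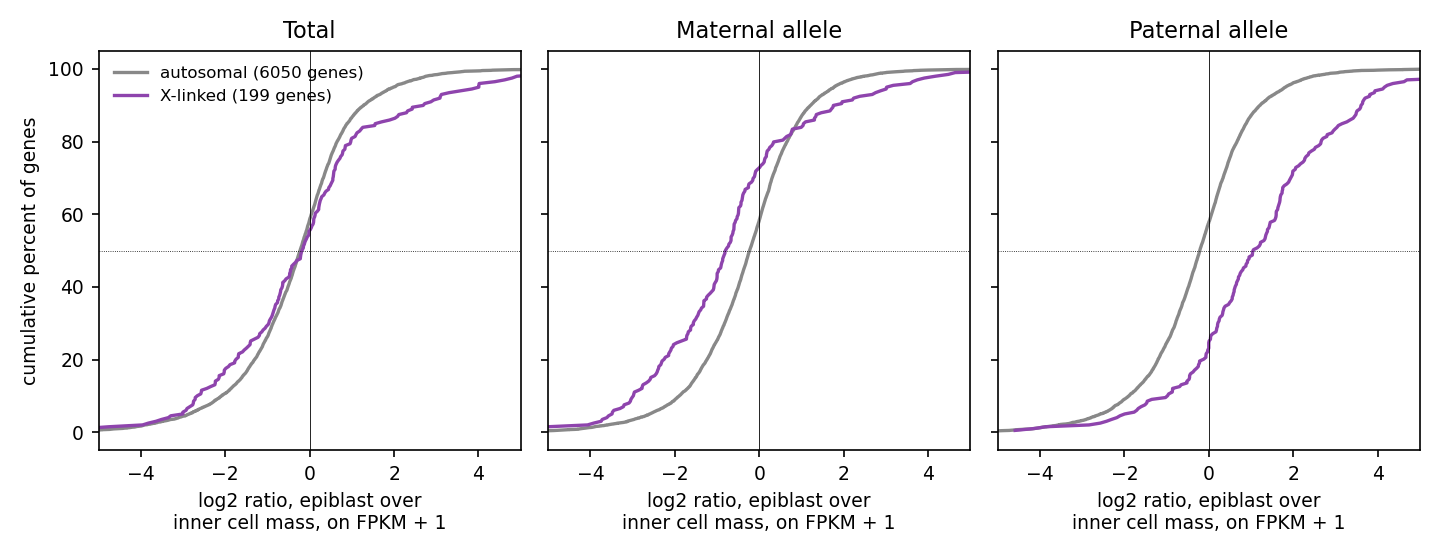
Cumulative percent of genes (y) at or below each log2 ratio of epiblast over inner cell mass on FPKM + 1 (x), for the total, the maternal allele and the paternal allele; grey lines are 6050 autosomal genes and purple lines 199 X-linked genes. The lines lie close for the total, the purple line is to the left for the maternal allele (median -0.79) and to the right for the paternal allele (median 1.06).

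At least 5 FPKM in both columns was reached by 126 X-linked genes. In 118 of them the paternal share of the total was higher in epiblast. The median change over all 126 was 31.4 percentage points. No such count is given here for autosomal genes. Over the 6050 compared, their median log2 ratios were -0.23 (maternal) and -0.21 (paternal). In 71 of the 126 X-linked genes the paternal level was higher and the maternal lower, in 26 both alleles were higher and in 26 both lower. The sterol enzyme gene Nsdhl is an example of the first kind, with 8.75 maternal and 0 paternal FPKM in inner cell mass and 5.15 and 7.21 in epiblast (a share of 0% and then 58.3%). Apex2, a DNA repair nuclease, had 8.85 and 0, then 7.69 and 10.4. Snx12, of membrane sorting, had 14 and 0.0942, then 10.1 and 11.4. Timm8a1, a mitochondrial import chaperone, had 57.3 and 4.41, then 45.0 and 66.9. Pgk1 and Mid1ip1 were higher from both alleles: Pgk1 had 37.2 and 0, then 279 and 338, and Mid1ip1, a regulator of lipid synthesis, 9.67 and 0.0203, then 15.8 and 18.1. Praf2 had a share of 10% and then 66.7%. Prickle3 was listed as all maternal in inner cell mass (8.20) and all paternal in epiblast (6.94). In epiblast the alleles of Nsdhl stood as 5 to 7 and those of Praf2 as 1 to 2, in lowest terms. Such shares may rest on few fragments, and how many is unknown.

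Few X-linked genes had no gain in paternal share. Xist, a long noncoding RNA that silences the X from which it is made, had 0.699 maternal and 10.3 paternal FPKM in inner cell mass and 12.7 and 5.98 in epiblast, a paternal share of 93.6% and then 32.0%. Its antisense partner Tsix had 30.4% and 28.6%, and with unstranded libraries reads in their overlap cannot be told apart. Rab9 (31.0% and 0%), Araf (24.9% and 6.67%) and 1810030O07Rik (46.9% and 34.2%) were also lower. The alleles of Araf stood as 14 to 1 in epiblast, so its share too may rest on few fragments. Rbm3 had 46.1% and 45.0% and Rpl10 38.1% in both. Rbbp7 had no paternal FPKM in either column although its total was 190 and 118, so a share of 0% need not mean a silent allele. The 5 compared genes known to escape X inactivation were all between, with totals such as 102 and 86.9 FPKM for Eif2s3x and 96.6 and 104 for Ddx3x. The X-linked genes furthest apart in total were Bex1, Bex4, Pim2 and Tspan6 on the higher side, followed by Arxes2 (log2 ratio 4.91), and Sat1, Renbp (-5.35) and Trap1a (-4.76) on the lower.

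Most paternally expressed imprinted genes with a measurable level came mainly from the paternal allele in both columns. Among paternally expressed genes with at least 1 FPKM, the median paternal share was 98.4% in inner cell mass (5 genes) and 98% in epiblast (7 genes). Nnat had 0.206 and 6.05 FPKM (log2 ratio 2.55), Inpp5f 2.58 and 9.21 (1.51), with a paternal share of only 40.7% in inner cell mass and 78.8% in epiblast, and Impact 20.4 and 18.3. Sfmbt2, which is paternally expressed in extraembryonic lineages, had 8.17 FPKM, all paternal, in inner cell mass and 0.0281 in epiblast (-3.16). Of maternally expressed genes, Grb10, a growth inhibitor, had 0.225 and 7.35 (2.77) and Phlda2 2.95 and 23.0 (2.60), with paternal shares in epiblast of 1.61% and 0%. Ndn was at 0 in inner cell mass and 15.2 in epiblast with a paternal share of 76.9%. The median share of maternally expressed genes was 38.9% in inner cell mass (6 genes) and 17.6% in epiblast (13 genes), over different genes.

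The levels of these genes in the other columns are given as a description. The groups were chosen by their inner cell mass and epiblast values, and 494 of the 850 higher genes were under 5 FPKM in inner cell mass, so their shares elsewhere partly follow from that choice. Genes higher in epiblast reached 5 FPKM in 37.8% of cases in 8-cell embryos, 38.7% in morulae and 48.2% in trophectoderm. At E6.5 the shares were 73.2% (visceral endoderm) and 78.2% (extraembryonic ectoderm). Their median level was 2.61 FPKM in 8-cell embryos and 3.17 in morulae, then 11 and 11.8 in the E6.5 extraembryonic tissues. Genes lower in epiblast reached 5 FPKM in 56.6% in 8-cell embryos, 79.6% in morulae and 83.8% in trophectoderm, and at E6.5 in 59.9% (visceral endoderm) and 70% (extraembryonic ectoderm). The remaining genes did so in 71.1% to 93.3% of cases in those columns. Gjb5, low in epiblast, was at 99.5 FPKM in extraembryonic ectoderm, and AU018091 at 82.0. Npl had 75.2 in visceral endoderm.

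At low levels the maternal and paternal values of a gene often stood in simple ratios. Among genes with both alleles above 0 and a total of 0.02 to 0.5 FPKM, the alleles in epiblast stood in a ratio of whole numbers up to 12 for 1007 of 1050 genes (95.9%, within a relative tolerance of 2e-05), as counts of single fragments would. In inner cell mass, where 2 samples were combined, 681 of 1122 (60.7%) did. In epiblast the maternal and paternal values of Klf5 stood as 2 to 1 and those of Tfcp2l1 as 5 to 4. Small pairs also occurred at higher levels, with the X-linked gene Praf2 (24.1 FPKM) at 1 to 2 and Rpl10 (2557) at 13 to 8. Above 100 FPKM, ratios of whole numbers up to 40 held for 80 of 634 genes in epiblast (12.6%) and 40 of 758 in inner cell mass (5.28%). These pairs are in lowest terms, so the split between alleles may rest on few fragments. The precision of the total cannot be read from it. The lengths and scaling needed to turn FPKM into counts were not at hand, and depth is unknown.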

How the data were processed

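Smart-seq2 RNA was measured in 2 pooled inner cell mass samples and 1 epiblast sample. The deposited values are FPKM per allele, computed by the authors; mm9, HISAT2 2.2.0, StringTie 2.1.1 and Trim Galore 0.6.4 appear in the submitters' processing notes. Allele assignment, the treatment of reads with several alignments and the scaling base are not given in the sources used here, and 5 summary lines were left out. Totals, ratios on FPKM plus 1, and counts past 2-fold were computed with Python 3.11.15, pandas 2.3.3 and numpy 2.4.6 and drawn with matplotlib 3.10.9; the steps were tested on simulated data. Chromosomes came from a reference table that matched 23968 of 24083 genes. Genes named are the 15 with the largest and the 15 with the smallest ratio, members of 36 gene lists, the 10 highest levels beside a 0 in either direction, up to 8 X-linked genes with the largest and smallest gain in paternal share, and genes nearest the minimum; a few X-linked and zinc finger or ribosomal genes at the extremes of their lists were added after their values were seen. Some items under these rules are not reported here. Members and lists were chosen with earlier results of these data known. Alternatives were other pseudocounts, minimums, alleles and scalings.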

Additional observations from a re-analysis of the deposited data

How the results depend on the processing

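With 1 epiblast sample and a pooled inner cell mass column, no sample could be left out. No paired analysis was possible because the inner cell mass column merges its 2 samples and the epiblast column is 1 sample. Under 11 other settings the higher genes numbered 571 to 1304 (main 850) and under 12 the lower genes 1028 to 2065 (main 1655); 1304 came with a minimum of 1 FPKM and 1028, chosen after seeing the data, without genes higher in trophectoderm than in inner cell mass. The naive median (main -4.56) was -6.25 with a pseudocount of 0.1, -2.70 with 5, -3.12 with a minimum of 1 FPKM, -5.23 on paternal values, -6.42 with both alleles above 0 and -5.41 with each column's total rescaled to the same sum. The formative median (4.06) was 2.34 with a pseudocount of 5, 3.18 with a minimum of 1 FPKM, 3.41 on maternal values and 3.05 with both alleles above 0. Naive medians were below 0 and formative medians above 0 under each of these. Across X-linked genes the median (-0.17) was -0.85 on maternal and 1.34 on paternal values when the minimum was applied to the allele. Of 351 other medians under these settings, 301 moved by less than a factor of 1.5, 47 by more and 3 changed sign: extraembryonic ectoderm markers (main -1.62) to 0.14 with a minimum of 1 FPKM and with both alleles above 0, and germ cell genes (main -1.23) to 1.15 with a minimum of 1 FPKM. Few genes entered those medians, and the cause was not tested. Of 722 counts of higher or lower genes per list under these settings, 620 were within 1.5 times the main count and 102 were not; for Zfp genes the higher count ran from 11 to 41 (main 21) and the lower from 14 to 45 (main 34). Depth is unknown, and ratios of genes under 1 FPKM in either column depend most on the pseudocount.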

Other observations

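The following lists were drawn up after values had been seen, so they describe and do not test. Lysosome genes were lower almost throughout: of 25 compared, 22 were lower and 0 higher (median log2 ratio -2.49), and 24 had a ratio below 0. Beside Psap and Gm2a, the glycosidases Gaa (35.5 FPKM in inner cell mass and 0.308 in epiblast, -4.80), Glb1 (60.6 and 2.47, -4.15) and Hexa (178 and 10.9, -3.91) were among the lowest, and the membrane protein Lamp1 had 383 and 85.7 (-2.15). The cathepsin Ctsz was the exception, at 31.3 and 56.6 (0.83). Trophectoderm had 780 FPKM of Psap and 1390 of Gm2a, and its part in these values was not tested.

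Of 22 lipid genes compared 4 (18.2%) were higher and 12 (54.5%) lower (median -1.22), beside 13.6% and 26.4% of all compared genes. Plin2, which coats lipid droplets, had 337 and 7.28 FPKM (-5.35). The mitochondrial oxidation genes Acadl (228 and 11.7, -4.17), Acadvl (64.9 and 3.16, -3.98), Acaa2 (120 and 10, -3.46) and Cpt1a (10.1 and 0.664, -2.74) were lower, whereas Hadhb (51.5 and 30.8), Cpt2 (11.2 and 15.3), Pnpla2 (6.07 and 7.41) and the storage gene Dgat2 (7.91 and 3.63) were between. Fasn, fatty acid synthase, had 2.59 and 16.1 (2.25) and Sqle, of sterol synthesis, 9.68 and 27.8 (1.43), but the desaturase Scd1 was lower (17.7 and 6.68, -1.28). Of 4 gap junction genes compared 3 were lower and 1 higher, Gjc1, with 0.0164 and 5.14 (2.59); Gja1 had 291 and 81.7 (-1.82).

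The Pramel and Trim43 genes, multicopy families of early embryos, were near absent from the epiblast column: Trim43a (186 FPKM in inner cell mass), Pramel6 (177), Pramel4 (132), Pramel7 (121), Pramel5 (97.0) and Pramef17 (27.1) were listed at 0 there. Their copies are similar in sequence, so single levels are uncertain. Ribosome biogenesis genes had 3 (10.3%) higher and 4 (13.8%) lower of 29 compared (median 0.18), beside 13.6% and 26.4% of all compared genes. Ddx21, a nucleolar helicase, had 16.8 and 56.4 (1.69) and Npm1, nucleophosmin, 1528 and 3445 (1.17), while Ubtf (30.8 and 10.8, -1.43) and Polr1b (60.7 and 26.7, -1.15), which transcribe ribosomal DNA, were lower.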
